A study of Mus musculus with 6 samples.

Results

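Cytosolic ribosomal protein genes were followed in clonal MIN6 cells, a line derived from a mouse insulinoma that serves as a β cell model. The members were the protein-coding genes whose mouse symbol, taken from GENCODE M21 through the Ensembl identifier, begins with *Rpl* or *Rps* followed by a number, p0 to p2, or a. The pattern matched 96 protein-coding symbols, of which 10 were *Rps6k* kinases and were left out, together with 7 matches of other gene types. This left 86 genes of 53801 mouse rows, 52 of the large subunit (*Rpl*) and 34 of the small subunit (*Rps*). *Rps19bp1* was taken by its symbol alone, since it encodes a protein that binds RPS19 and not a ribosomal protein. *Fau* and *Rack1*, which do encode ribosomal proteins, fell outside the pattern and were read beside it.

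Messenger RNA was sequenced from 3 control clones, in which Cas9 was directed to intron 2 of *Snd1*, and from 3 *Snd1* KO clones, in which it was directed to exon 2. Each clone gave 1 library, so p-values measure the spread between these 6 clones. All 6 clones share the MIN6 background and Cas9 treatment, and apart from the Cas9 target no treatment or time point separates them. The study lists its KO clones under different guides to exon 2 and with different lesions. *Snd1* had 113, 119 and 112 TPM (reads per transcript length, scaled to the same total in each library) in Controls 1 to 3, and 14.7, 57.1 and 19.9 TPM in *Snd1* KO 1 to 3. *Snd1* KO 2 therefore retained the most *Snd1* mRNA of the 3 KO clones. Reads on genes, recovered from the steps of the TPM values, numbered between 24959867 (Control 3) and 31982949 (Control 1). These are more reads than the methods of the study describe per library, and counted as pairs of mates they would lie within the range given there. Which of the 2 was counted is not stated in the sources used here, so the recovered reads are used as relative depth. Of 16 β cell markers, 16 passed the filter on low values, and their summed level ranged from 60110 to 93380 TPM among controls and from 68660 to 101100 TPM among KO clones. Fibroblast and endothelial markers summed to at most 6.21 TPM and immune markers to at most 6.79 TPM in any clone.

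The ribosome consists of ribosomal RNA and a set of proteins, most of which are needed in equal numbers. The genes of these proteins are among the most strongly expressed in dividing cells. Their mRNAs are short and begin, at the first base, with a run of pyrimidines (the TOP element) through which mTORC1 signaling controls their translation. In β cells the ribosomes on the endoplasmic reticulum carry the synthesis of proinsulin. SND1 is an RNA-binding protein and transcriptional coregulator.

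The bases around the start of transcription are shown for members on which the results below turn, since a pyrimidine start is what ribosomal protein mRNAs are known for. RefSeq windows of 250 bases before to 50 bases after the start (build GRCm38.p6) were at hand for 66 of the 86 members, and *Rpl3* was not among them. Each line runs 5′ to 3′ from 40 bases before the start through the first 20 transcribed bases. Capitals mark runs of 6 or more C or T that touch the bases from 10 before the start to the 20th transcribed base, and the motif CCGGAAG, the core of ETS family sites. The lines are *Rpl12* (chr2:32961672-32961731, plus strand), *Rpl27* (chr11:101442205-101442264, plus), *Rps6* (chr4:86857348-86857407, minus), *Rpl38* (chr11:114668540-114668599, plus), *Rps27* (chr3:90213629-90213688, minus), its paralog *Rps27l* (chr9:66946046-66946105, plus) and *Rpl22l1* (chr3:28805468-28805527, plus).
Rpl12: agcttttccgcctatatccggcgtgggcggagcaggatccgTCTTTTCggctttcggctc
Rpl27: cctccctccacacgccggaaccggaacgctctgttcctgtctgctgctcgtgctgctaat
Rps6: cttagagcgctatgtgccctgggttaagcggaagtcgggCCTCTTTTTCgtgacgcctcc
Rpl38: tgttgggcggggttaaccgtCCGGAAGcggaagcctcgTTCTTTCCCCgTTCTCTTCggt
Rps27: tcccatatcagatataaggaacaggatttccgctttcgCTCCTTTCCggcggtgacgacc
Rps27l: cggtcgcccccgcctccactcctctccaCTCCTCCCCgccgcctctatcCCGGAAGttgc
Rpl22l1: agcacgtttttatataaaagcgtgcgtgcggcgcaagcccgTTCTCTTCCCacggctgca
Such a run at the start was found in 43 of 66 members (65.2%), and in 40.1% of the 27025 genes with a window. CTTTCC on the sense strand, within 20 bases before and 30 after the start, was found in 13 members (19.7%) and in 2.83% of all genes with a window. CCGGAAG on either strand anywhere in the window was found in 26 members (39.4%) and in 9.93% of all, and AAGATGG on either strand, the core of YY1 sites, in 10 (15.2%) and in 7.28%.

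The members lie on 19 chromosomes, with 14 on chromosome 7 and 4 on X. Their median coding length was 453 bases, and that of all tested protein-coding genes was 1356 bases. Small nucleolar RNA (snoRNA) genes, which guide the modification of ribosomal RNA, lie inside 30 members and number 59. Processed pseudogenes share sequence with many members, and this limits which gene a read can be assigned to. In 32 members over 50% of the 100-base windows of the principal transcript also occurred in a transcript of another gene, with a median of 33.4% over the members. In 9 members, *Rpl22* and *Rps27l* among them, no window was shared. In 12 members over 20% of the exonic bases lie under another annotated gene, which makes their values uncertain. The share was 66.2% in *Rpl35*, 62.3% in *Rpl23a*, 47.0% in *Rpl24*, 35.4% in *Rpl13a*, 26.7% in *Rpl5* and 24.5% in *Rpl36al*.

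In reads per kilobase of the principal mRNA, scaled to library size (RPKM), *Rpl41* had the highest level of all members at 1019, followed by *Rps15* at 690 and *Rps27* at 633. These are means over the clones, and in Control 3 and *Snd1* KO 2 *Rps27* lay above *Rps15*. Of the windows of *Rps27*, 98.4% also occur in transcripts of other genes, which makes its level uncertain. At the other end, *Rpl39l* had 0 reads in the 6 clones, *Rpl10l* had 1 read in *Snd1* KO 2 alone, and *Rpl3l* had at most 5 reads in a clone. These 3 are paralogs of *Rpl39*, *Rpl10* and *Rpl3*. They fell below the mean of 0.5 TPM, and the other 83 members were tested.

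None of the 83 members was called between *Snd1* KO and control when both an adjusted p-value under 0.05 and a 2-fold change were required (limma with Benjamini-Hochberg adjustment). Of all 17823 genes tested, 1 was called (0.00561%), and limma-voom on recovered reads called 0. The edited gene *Snd1* was itself not called (log2 fold change −2.11, SE 0.45, adjusted p = 0.511, limma), although its groups did not overlap. The study reported changed genes in both directions at the same limits with its own processing. A gene that was not called here is therefore not shown to be unchanged. At an unadjusted p under 0.05, 0 members were higher in *Snd1* KO, where 5.63% of all genes were, and 1 member was lower, where 2.33% of all genes were. In either direction this came to 1 member of 83, where 7.96% of all genes passed. This member was *Rpl3*. The log2 fold change was below 0 in 76 of the 83 members (91.6%) and in 42.7% of all genes, and above 0 in 7 members (8.43%) and in 57.3% of all genes. The median over the members was −0.13 on the log2(TPM + 1) scale, a difference of −8.56%, with −0.12 for the large and −0.14 for the small subunit, and the median of all genes was 0.04. Single members ranged from −0.39 (*Rpl38*) to 0.13 (*Rps27l*).

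The direction over the members rested on which clones were compared. Without Control 3 the members' median was −0.01, with 47 members (56.6%) and 49.4% of all genes below 0. Without *Snd1* KO 1 it was −0.05, with 55 members (66.3%) and 42.3% of all genes below 0. With both of these clones left out, 27 of 83 members (32.5%) were below 0, where 47.6% of all genes were, and the median was 0.06. With Control 3 and *Snd1* KO 2 left out, 76 members (91.6%) were below 0, where 50.7% of all genes were, and the median was −0.12. Without *Snd1* KO 2, the clone with the most remaining *Snd1* mRNA, the median was −0.24 and 80 members (96.4%) and 44.1% of all genes were below 0. With all clones and rescaling without insulin and mitochondrial genes, 64 members (77.1%) and 36% of all genes were below 0. These counts were chosen after the values had been seen.

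Most members were high together in Control 3 and *Snd1* KO 2, and low together in *Snd1* KO 1 and 3. Of the 83 tested, 81 lay above their own 6-clone mean in Control 3 and 75 in *Snd1* KO 2. In *Snd1* KO 1 and 3 there were 5 each, and in Controls 1 and 2 there were 22 and 19. The members made up 3.21%, 3.20% and 4.01% of all TPM in Controls 1 to 3, and 2.77%, 3.73% and 3.06% in *Snd1* KO 1 to 3. The group means were 3.47% ± 0.465 and 3.19% ± 0.492 (SD, n = 3), so the difference between the groups was smaller than the spread within either. This difference of −0.289 percentage points was −0.0204 without Control 3, −0.0818 without *Snd1* KO 1 and −0.561 without *Snd1* KO 2. Control 3 was the highest clone and *Snd1* KO 1 the lowest, with *Snd1* KO 2 above the remaining controls.

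**Figure D1:**
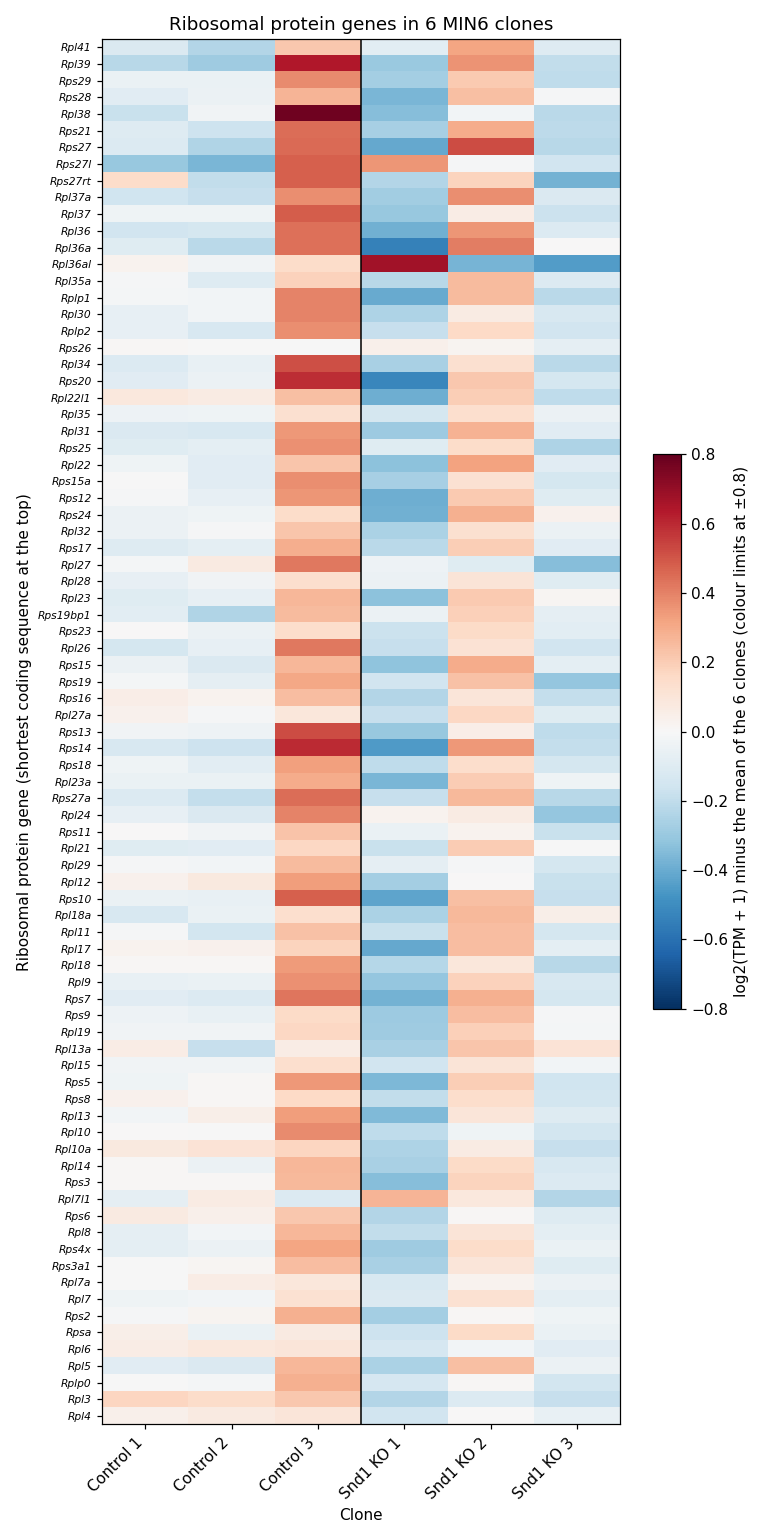
Level of each of the 83 tested ribosomal protein genes in the 6 clones, as log2(TPM + 1) minus the mean of the 6 clones for that gene (red above, blue below), with the shortest coding sequence at the top. Control 3 and *Snd1* KO 2 are red over most rows and *Snd1* KO 1 blue, with *Rps27l*, *Rpl36al* and *Rpl7l1* red in *Snd1* KO 1.

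Control 3 held the highest value of the 6 clones for 62 of 83 members (74.7%), and for 9.34% of all genes tested. *Snd1* KO 2 was highest for 18 (21.7%, with 25.4% of all genes) and *Snd1* KO 1 for 3 (3.61%, with 21.5%). Controls 1 and 2 and *Snd1* KO 3 were highest for 0 members, where they were highest for 17.1%, 13.1% and 13.6% of all genes. *Snd1* KO 1 held the lowest value for 67 members (80.7%), and for 19.9% of all genes. *Snd1* KO 3 was lowest for 13 members (15.7%, with 8.12%) and Control 2 for 3 (3.61%, with 16.4%). Control 1, Control 3 and *Snd1* KO 2 were lowest for 0 members, where they were lowest for 12%, 28.9% and 14.7% of all genes.

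The median deviation of the members from their own 6-clone mean was 0.27 in Control 3 and 0.16 in *Snd1* KO 2 on the log2 scale. It was −0.04 in Control 1, −0.05 in Control 2, −0.13 in *Snd1* KO 3 and −0.25 in *Snd1* KO 1. The median deviation of all other genes lay between −0.11 (Control 3) and 0.05 (Control 1). In bulk libraries, less RNA per cell and fewer cells that make it cannot be told apart. The order of the 2 highest clones and the lowest was the same with TPM, with median ratio scaling, with quantile normalization and with recovered reads scaled to library size. Rescaling without insulin and mitochondrial genes left Control 3 highest for 43 and *Snd1* KO 2 for 32 members, whereas median ratio scaling left Control 3 highest for 80 and *Snd1* KO 2 for 1.

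Other measures also differed between these clones. Transcripts of the mitochondrial genome made up 9.17% of TPM in Control 3 and between 13.6% and 16.4% in the other clones, with the highest share in *Snd1* KO 1. *Ins1* and *Ins2* together held 2.77% in *Snd1* KO 2, 2.47% in Control 3, and 1.43% in *Snd1* KO 1, so the same 2 clones were highest and the same clone lowest as for the members. Control 3 also had the fewest reads on genes. Of 9 markers of other islet cells, 2 passed the filter, and the list summed to 175 to 314 TPM among controls and 57.5 to 1103 TPM among KO clones. The highest sum, in *Snd1* KO 1, was almost all *Gcg* (1100 TPM), while *Hhex* had 0 in all clones. Of 8 exocrine and duct markers found, 1 passed, *Krt7*, and the list summed to 4.32, 2.07 and 72.9 TPM in Controls 1 to 3 and to between 44.3 and 87.5 TPM in the KO clones, with *Prss1* and *Cpa1* at 0 in all clones. Fibroblast and endothelial markers summed to 5.43, 6.21 and 0.434 TPM in Controls 1 to 3 and to between 1.11 and 1.33 TPM in the KO clones, and immune markers to 6.79, 6.27 and 2.19 TPM and to between 2.66 and 3.24 TPM. In these 3 lists Control 3 lay nearer to the KO clones than to Controls 1 and 2. The part of these measures in the members' levels was not tested beyond the rescaling above.

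The difference between clones was larger for members with short coding sequences. Control 3 exceeded the mean of Controls 1 and 2 by a median of 0.46 (log2) in the 29 members under 400 coding bases, 0.35 in the 31 from 400 to 600, and 0.16 in the 23 longer members. In other protein-coding genes of the same length classes the medians were 0.09, −0.04 and −0.17, and in those with a mean of at least 50 TPM they were 0.18, −0.02 and −0.15. Both sets had lower differences in longer genes, and the members lay above the other genes in each class.

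Across the 83 members, which come from the same libraries and are not independent, Spearman's rho between coding length and the difference was −0.56, across 12623 other protein-coding genes it was −0.19, and across the 2945 of these with a mean of at least 50 TPM it was −0.29. Within the KO group the class medians had the same order. *Snd1* KO 2 exceeded the mean of *Snd1* KO 1 and 3 by 0.45, 0.32 and 0.24 in the 3 length classes of members (rho −0.42), and by 0.12, 0.04 and −0.02 in other genes (rho −0.15, and −0.24 at a mean of at least 50 TPM). Within single classes of members the relation was not uniform, with rho of −0.13 under 400 bases, 0.35 from 400 to 600 and −0.48 above. For the Control 3 difference these values were −0.43, −0.08 and −0.26. Between the genotypes the medians of the 3 classes were −0.10, −0.14 and −0.16. Library insert size and RNA integrity per clone were not analysed here.

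**Figure D2:**
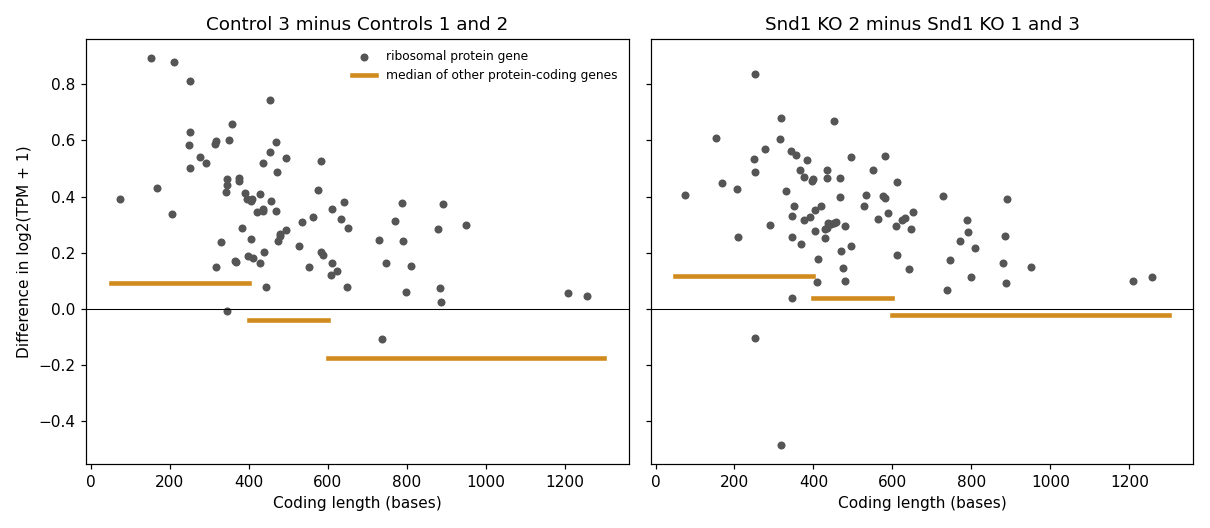
Difference in log2(TPM + 1) between Control 3 and the mean of Controls 1 and 2 (left) and between *Snd1* KO 2 and the mean of *Snd1* KO 1 and 3 (right), against coding length in bases, with 1 point per tested member. Orange lines give the median of other protein-coding genes under 400, from 400 to 600 and over 600 bases (the last line is drawn to the edge of the members' range), and most points lie above them.

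Single members show the spread between clones. *Rpl38*, whose protein is required for the translation of a subset of *Hox* mRNAs in the embryo, has 210 coding bases and a pyrimidine run at its start. It had 275, 305 and 534 TPM in Controls 1 to 3 and 245, 306 and 267 TPM in *Snd1* KO 1 to 3. Control 3 stood apart and the other 5 clones overlapped (log2 fold change −0.39, SE 0.26, adjusted p = 0.711, limma). *Rpl39*, with 153 coding bases, had 268, 257 and 489 TPM in control and 255, 402 and 273 TPM in KO clones, so that a clone of each group was high. *Rps20*, a protein of the small subunit head, had 143, 148 and 230 TPM and 106, 177 and 138 TPM. It was highest in Control 3 and lowest in *Snd1* KO 1, a 2.18-fold range. In contrast, *Rps26*, named here after its values were seen, had 461, 457 and 457 TPM in control and 470, 465 and 435 TPM in KO clones, and its highest and lowest clones differed 1.08-fold.

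Every *Snd1* KO clone was below every control clone for 8 of 83 members (9.64%), where this held for 4.03% of all genes, and every *Snd1* KO clone was above for 0 members, where this held for 9.69%. With 3 clones in each group, the smallest p that an exact permutation test (two-sided) can reach is 0.1. The 8 were *Rpl3*, *Rpl27*, *Rpl12*, *Rpl10*, *Rpl10a*, *Rps6*, *Rpl6* and *Rpl4*. Their median coding length was 698 bases, and that of the 75 overlapping members 435 bases. The 8 also shared more sequence with other genes. A median of 66.8% of their windows also occur in transcripts of other genes, and 32.7% in the 75 overlapping members. Within the 8 this share ran from 5.14% (*Rpl4*) to 87.1% (*Rpl10a*). Whether reads of other genes enter the values of the 8 was not tested. With *Snd1* KO 2 left out, 49 members (59%) had this order, where it held for 6.82% of all genes. Without Control 3 it held for the same 8 members and for 17.8% of all genes. Under median ratio scaling 6 members (7.23%) and 6.76% of all genes had it, so the members' share was close to that of all genes. Rescaling without insulin and mitochondrial genes also gave 6 members, where it held for 2.45% of all genes, and *Rpl27* and *Rpl10a* were lost under both. These settings were chosen after the values had been seen.

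*Rpl3* encodes a large subunit protein that reaches toward the peptidyl transferase center. It had 270, 266 and 278 TPM in Controls 1 to 3, which rest on 11932, 11168 and 10635 reads. In *Snd1* KO 1 to 3 it had 203, 222 and 210 TPM, which rest on 8106, 8509 and 8663 reads. Both groups were tight and did not overlap. The means were 271 ± 6.36 and 212 ± 9.18 TPM (SD, n = 3), so the *Snd1* KO mean was 78.1% of control. The log2 fold change was −0.36 (SE 0.09), with an unadjusted p of 0.00743 and an adjusted p of 0.568 (limma), and it was between −0.30 and −0.40 in the other settings run that kept all clones. Leaving out each clone in turn gave −0.33 to −0.39. With clone quality weights the adjusted p was 0.0235 (limma), at a change under 2-fold. Of the 100-base windows of *Rpl3*, 79.4% also occur in transcripts of other genes, which number 7. Control 3 exceeded Controls 1 and 2 by only 0.06 for *Rpl3*.

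Among the other members with groups apart, *Rpl12*, a protein at the base of the stalk that recruits elongation factors, had 145, 150 and 180 TPM in control and 118, 142 and 126 TPM in KO clones. The nearest clones of the groups, Control 1 and *Snd1* KO 2, lay close together. The log2 fold change was −0.30 (SE 0.13, adjusted p = 0.607, limma). *Rpl27* had 156, 167 and 212 TPM and 153, 148 and 125 TPM, and here *Snd1* KO 3 was the lowest clone. *Rps6*, the substrate of the S6 kinases downstream of mTORC1, had 277, 271 and 307 TPM and 225, 265 and 246 TPM, a log2 fold change of −0.22 (SE 0.11, adjusted p = 0.629, limma). *Rpl10*, which joins the large subunit late in its maturation, had 342, 341 and 445 TPM and 297, 334 and 308 TPM. For *Rps6* and *Rpl10* as well, *Snd1* KO 2 came closest to the controls. *Rpl10a* had 102, 105 and 109 TPM in control and 81.5, 102 and 85.0 TPM in KO clones.

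**Figure D3:**
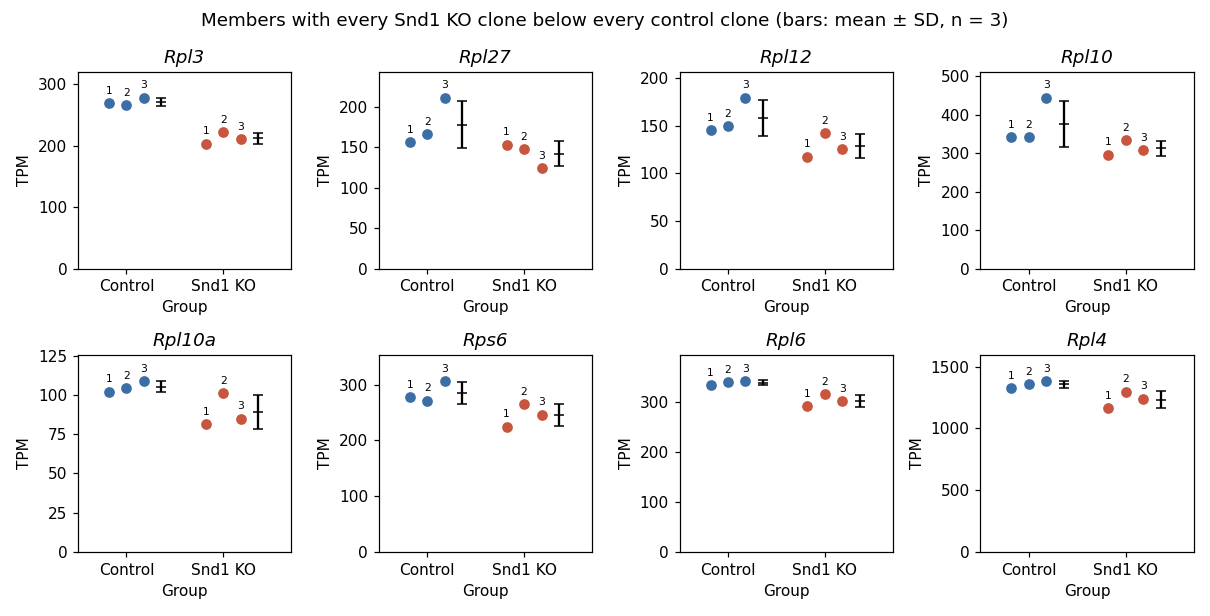
TPM of the 8 members for which each *Snd1* KO clone (orange) was below each control clone (blue), with clone numbers above the points, mean ± SD beside them (n = 3) and axes from 0. *Rpl3* shows the widest gap relative to its spread, and in 7 of the 8 panels *Snd1* KO 2 is the highest KO clone.

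*Rpl5* and *Rpl11*, which bind MDM2 together with a ribosomal RNA when ribosome assembly is disturbed, did not separate. *Rpl5* had 186, 183 and 239 TPM in control and 166, 235 and 192 TPM in KO clones. *Rpl11* had 184, 168 and 218 TPM and 164, 220 and 168 TPM. Their log2 fold changes were −0.04 (SE 0.17) and −0.05 (SE 0.16). For both genes Control 3 and *Snd1* KO 2 were the high clones. *Rps19*, mutated in Diamond-Blackfan anemia, had 85.6, 82.5 and 108 TPM and 77.9, 102 and 69.8 TPM (log2 fold change −0.15, SE 0.18). *Rpsa*, also known as the laminin receptor, had 386, 359 and 393 TPM and 333, 415 and 360 TPM (−0.04, SE 0.12). In both, the 2 groups overlapped and *Snd1* KO 2 was the highest KO clone.

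The stalk proteins that call elongation factors to the ribosome followed the same clones. *Rplp0* had 743, 736 and 909 TPM in control and 679, 749 and 674 TPM in KO clones. *Rplp1* had 2078, 2072 and 2772 TPM and 1591, 2505 and 1806 TPM. *Rplp2* had 191, 183 and 258 TPM and 175, 223 and 179 TPM. Control 3 was highest for all 3, and their log2 fold changes were −0.18, −0.24 and −0.12 with adjusted p-values of 0.749, 0.786 and 0.869 (limma).

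Paralogs were compared with their partners within each clone, as a log2 ratio of TPM + 1, which library scaling touches only through the added 1. Of the 5 pairs in which both genes passed the filter, only *Rpl22l1* to *Rpl22* had groups that did not overlap. Both proteins occupy the same place in the large subunit. *Rpl22l1* had 69.4, 68.8 and 77.8 TPM in control and 49.8, 75.4 and 56.9 TPM in KO clones. *Rpl22* had 117, 113 and 141 TPM and 95.6, 151 and 113 TPM. The log2 ratio was −0.75, −0.70 and −0.85 in Controls 1 to 3, and −0.93, −0.99 and −0.98 in *Snd1* KO 1 to 3. All 3 KO clones were below all controls, also where the 2 genes taken singly overlapped. The difference was −0.20 (exact permutation test, p = 0.1, the smallest possible, adjusted p = 0.5 over 5 pairs). It was −0.17 to −0.24 when each clone was left out in turn. Of the windows of *Rpl22l1*, 50.8% are shared with 2 other genes, and of those of *Rpl22* none.

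In 3 of the other 4 pairs *Snd1* KO 1 lay apart from the rest, and for *Rps27rt* to *Rps27* it lay within the range of the controls. *Rps27l*, a target of p53, had 118, 113 and 204 TPM in control and 187, 146 and 131 TPM in KO clones. Its partner *Rps27* had 247, 225 and 366 TPM and 201, 384 and 229 TPM. The log2 ratio of *Rps27l* to *Rps27* was −0.10 in *Snd1* KO 1 and between −1.39 and −0.80 in the other 5 clones. Of the windows of *Rps27*, 98.4% are shared with other genes, and of those of *Rps27l* none. *Rpl36al*, an intronless copy of *Rpl36a*, had 16.9, 16.2 and 18.5 TPM in control and 27.0, 12.6 and 11.9 TPM in KO clones. The log2 ratio to *Rpl36a* was −1.38 in *Snd1* KO 1 and between −3.38 and −2.40 elsewhere. Of the windows of *Rpl36a*, 83.6% are shared, and of those of *Rpl36al* 21.7%. *Rpl7l1*, whose protein acts in the nucleolus, had 149, 163 and 145 TPM and 189, 166 and 133 TPM. Its log2 ratio to *Rpl7* was −0.96 in *Snd1* KO 1 and between −1.58 and −1.25 elsewhere. Of the windows of *Rpl7*, 28.2% are shared, and of those of *Rpl7l1* 1.68%. These 3 ratios were thus highest in *Snd1* KO 1, the clone in which all 3 partners had their lowest TPM, and this raises the ratios there. In TPM alone, *Rps27l* was highest in Control 3, and *Rpl36al* and *Rpl7l1* were highest in *Snd1* KO 1. Between the genotypes their ratios differed by 0.20, −0.01 and 0.13, with exact permutation p-values of 0.7, 1.0 and 0.6.

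**Figure D4:**
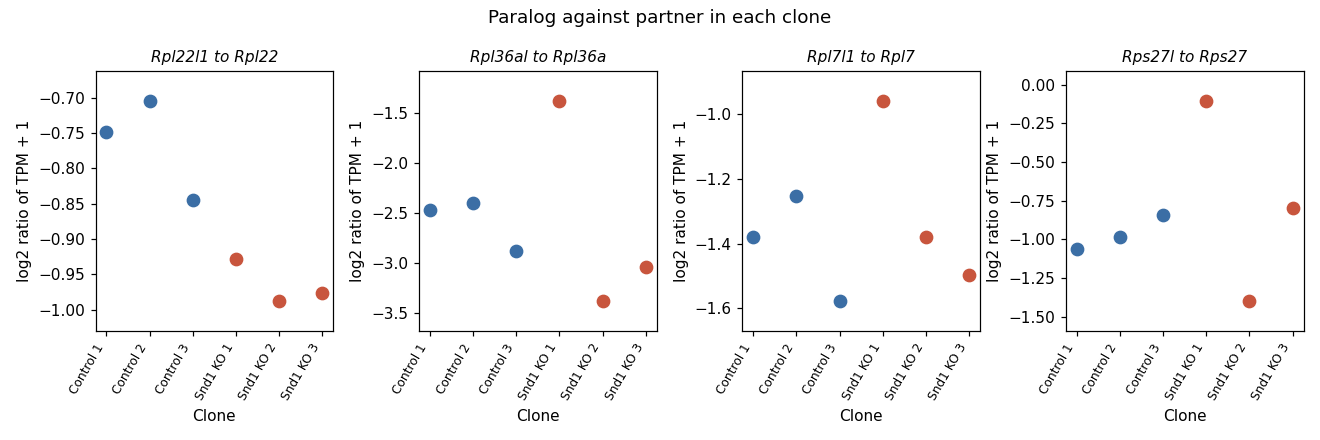
Log2 ratio of TPM + 1 of each paralog to its partner in the 6 clones (blue control, orange *Snd1* KO), each panel with its own vertical axis. *Rpl22l1* to *Rpl22* is lower in all 3 KO clones, and the other 3 pairs are highest in *Snd1* KO 1. The pair of *Rps27rt* to *Rps27*, which rests on at most 20 reads of *Rps27rt* in a clone, is not drawn.

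*Rack1* and *Fau*, outside the symbol pattern, were read next. *Rack1*, a scaffold on the small subunit, had 220, 237 and 302 TPM in control and 170, 234 and 196 TPM in KO clones. *Fau*, whose product is cut into a small subunit protein and a ubiquitin-like part, had 313, 314 and 469 TPM and 277, 420 and 304 TPM. Both were highest in Control 3 and lowest in *Snd1* KO 1.

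Translation factors, which bring tRNA and mRNA to the ribosome, summed to 12380, 12470 and 12460 TPM in Controls 1 to 3 and to 11410, 11390 and 11970 TPM in *Snd1* KO 1 to 3. These sums did not overlap, and Control 3 lay between the other controls. Gene by gene, Control 3 was highest for 9 of the 39 (23.1%), where it was for 9.34% of all genes. Of 39 tested, 0 were higher and 1 (2.56%) was lower at an unadjusted p under 0.05, close to the 2.33% of all genes that were lower. Their median log2 fold change was −0.08. Every *Snd1* KO clone was below every control for 4 of them (10.3%, with 4.03% of all genes) and above for 3 (7.69%, with 9.69%). The 1 was *Eef1g*, a subunit of the factor that recharges the elongation factor with GTP. It had 290, 297 and 290 TPM in control and 243, 223 and 237 TPM in KO clones (log2 fold change −0.32, SE 0.09, adjusted p = 0.568, limma), with groups well apart.

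Named ribosomal protein pseudogenes had a median on the other side of 0 from the members. Of 297 in the annotation, 120 passed the filter, and their log2 fold changes had a median of 0.15 with 82 (68.3%) above 0, where all genes had a median of 0.04 with 57.3% above 0. At an unadjusted p under 0.05, 10 (8.33%) were higher, with 5.63% of all genes, and 3 (2.5%) were lower, with 2.33%. Their sum was 731, 736 and 686 TPM in control and 835, 922 and 818 TPM in KO clones, without overlap. Gene by gene, every *Snd1* KO clone was above every control for 16 (13.3%, with 9.69% of all genes) and below for 3 (2.5%, with 4.03%). *Rpl21-ps1* had 9.46, 6.89 and 8.42 TPM in control and 17.4, 19.3 and 12.5 TPM in KO clones, and every KO clone was above every control. *Rps26-ps1* had 1.53, 2.76 and 2.53 TPM and 1.45, 1.01 and 0.469 TPM, in the opposite order. Control 3, highest for 62 of the 83 members, was the lowest clone in the sum of the pseudogenes. Gene by gene, it was highest for 15 of the 120 (12.5%), where it was for 9.34% of all genes. *Rpl21* and *Rps26*, the parents of the pseudogenes named, were highest in *Snd1* KO 2 and *Snd1* KO 1. Reads of a pseudogene and its parent, or of a host transcript around it, cannot be told apart here where their sequences match.

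Of 51 ribosome biogenesis factors tested, 2 (3.92%) were higher and 0 lower at an unadjusted p under 0.05, with a median of 0.0006. In this list and the 3 that follow, the share that was higher was below the 5.63% of all genes, so these counts are no result about the lists. Every *Snd1* KO clone was above every control for 9 of the biogenesis factors (17.6%, with 9.69% of all genes) and below for 2 (3.92%, with 4.03%). The 2 were *Ebna1bp2* (48.7, 46.4 and 49.6 TPM in control, 56.3, 60.2 and 58.5 TPM in KO clones) and *Sbds*, which releases a factor that holds the subunits apart (55.8, 53.4 and 53.4 TPM, and 58.7, 68.9 and 68.3 TPM). Of 20 genes of RNA polymerase I and its factors, 1 (5%) was higher. The sums of this list did not overlap, with 534 to 544 TPM among controls and 554 to 602 TPM among KO clones. The 1 was *Polr2k*, a subunit common to the 3 polymerases, with 54.3, 56.5 and 57.7 TPM in control and 69.0, 83.0 and 66.6 TPM in KO clones.

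Of 22 genes that control ribosomal protein mRNAs, 1 (4.55%) was higher, *Cnbp*, which binds the pyrimidine start of these mRNAs. Every *Snd1* KO clone was above every control for 4 of the 22 (18.2%, with 9.69% of all genes) and below for 1 (4.55%, with 4.03%). *Cnbp* had 144, 130 and 134 TPM in control and 166, 193 and 173 TPM in KO clones, without overlap (log2 fold change 0.38, SE 0.10, adjusted p = 0.568, limma). Of 77 mitochondrial ribosomal protein genes, 1 (1.3%) was higher and 0 lower, the median was −0.01, and 20 (26%) were highest in Control 3, where 9.34% of all genes were. Members with a pyrimidine run at the start exceeded Controls 1 and 2 in Control 3 by a median of 0.30 (n = 42), and those without it by 0.38 (n = 21).

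**Figure D5:**
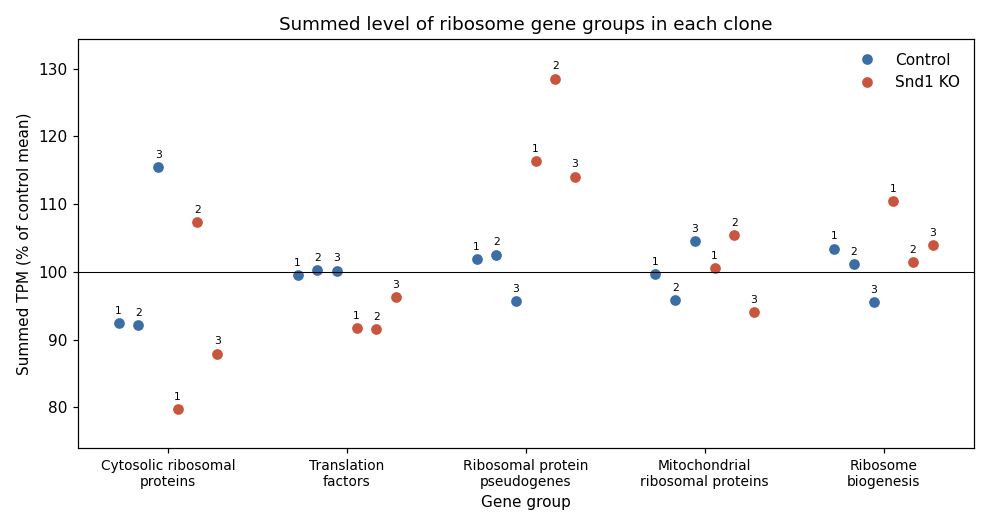
Summed TPM of 5 gene groups in each clone as a percentage of the control mean (blue control, orange *Snd1* KO, clone numbers above the points). Cytosolic ribosomal proteins order by clone with Control 3 and *Snd1* KO 2 on top, and the *Snd1* KO sums lie below the control sums for translation factors and above them for ribosomal protein pseudogenes.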

How the data were processed

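RNA with integrity numbers of at least 7.0 was made into cDNA libraries (Nextera XT) and sequenced as paired ends of 100 bases. Processing by the authors took place on the Genialis platform, and the values they deposited are TPM for each gene. The submitters' processing notes name FastQC, Trimmomatic, HISAT2, HTSeq, DESeq2 and mm10. The members and lists were chosen with earlier results of these data known. TPM multiplied by the summed exon length of all transcripts of a gene (GENCODE M21) gave whole reads for 93.3% to 93.8% of values above 0, within 0.01 of a whole number. After a search for other lengths, 99.97% of 14851 genes gave whole reads in all 6 clones. Reads cover counting error only. The summed length is longer than the exonic length by a median factor of 2.02 in the members, so sums and ratios of TPM over different genes weight genes by this length and are compared between clones only. Results for some genes, among them 1 ribosomal protein gene outside the symbol pattern, are not reported here.

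Genes whose mean reached 0.5 TPM were compared as log2(TPM + 1) with limma 3.58.1 in R 4.3.3 (mean-variance trend, Benjamini-Hochberg). Fold changes on this scale understate the change of low genes. The method was tested on simulated data. Genes named were *Snd1*, members with the 5 highest and lowest log2 fold changes, members with groups that do not overlap, those with the 3 highest and lowest mean TPM, paralogs and partners, members of known role, and up to 2 genes per direction of each list at an unadjusted p under 0.05. Of these, *Rpl17*, *Rps3a1* (highest TPM), *Rps13*, *Rpl36a*, *Rps4x* and several list genes are given by counts and ranges alone. ERCC and SIRV controls were left out. Alternatives were pseudocounts, filters, scalings, priors, clone quality weights, a replicate block, voom on recovered reads and leaving out each clone. Python 3.11.15 served for the rest.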

Additional observations from a re-analysis of the deposited data

How the results depend on the processing

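Genes called at an adjusted p under 0.05 and 2-fold numbered 1, and 0 with no filter, with no trend, with the replicate block and with voom on recovered reads, 2 at an adjusted p under 0.1, 895 with clone quality weights, which gave Control 3 and *Snd1* KO 1 the lowest weights, and 0 to 2 without single clones. Members at an unadjusted p under 0.05 numbered 1 (7.96% of all genes), 8 with these weights (32.6% of all genes, and *Rpl3* then had an adjusted p of 0.0235, limma), and 1 to 5 without single clones, the 5 without *Snd1* KO 2 (4.84% of all genes) and 2 without *Snd1* KO 1 (14.3%). Members with a log2 fold change below 0 numbered 76, between 47 and 81 without single clones, 27 without Control 3 and *Snd1* KO 1, and 76 without Control 3 and *Snd1* KO 2. Members with every *Snd1* KO clone below every control clone numbered 8 (4.03% of all genes), between 8 and 49 without single clones, the 49 without *Snd1* KO 2 (6.82% of all genes) and at most 10 otherwise, and 49 without Control 3 and *Snd1* KO 2 (22% of all genes). The members' median log2 fold change was −0.13, and −0.24 to −0.01 without single clones, −0.18 with median ratio scaling, −0.08 with rescaling without insulin and mitochondrial genes and −0.06 with clone quality weights.

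Small log2 fold changes turned direction. With rescaling without insulin and mitochondrial genes, *Rpl11* was at 0.0022, *Rpl5* at 0.0119, *Rpl7* at 0.0065 and *Rpsa* at 0.0084. With median ratio scaling *Rpl13a* was at −0.0015. With clone quality weights *Rpl22* was at 0.0030, *Rpl36a* at 0.16, *Rpl39* at 0.0771, *Rpl5* at 0.065, *Rpl7l1* at −0.16 and *Rps27* at 0.02. Without single clones, log2 fold changes that turned ranged from −0.18 to 0.0539 for *Rpl11*, −0.0541 to 0.19 for *Rpl13a*, −0.32 to 0.0058 for *Rpl17*, −0.24 to 0.0833 for *Rpl22*, −0.24 to 0.0185 for *Rpl24*, −0.31 to 0.16 for *Rpl36a*, −0.46 to 0.10 for *Rpl36al*, −0.29 to 0.21 for *Rpl39*, −0.0481 to 0.22 for *Rpl41*, −0.17 to 0.0842 for *Rpl5*, −0.12 to 0.0049 for *Rpl7*, −0.0347 to 0.22 for *Rpl7l1*, −0.23 to 0.0338 for *Rplp2*, −0.0606 to 0.18 for *Rps19bp1*, −0.35 to 0.14 for *Rps27*, −0.0231 to 0.40 for *Rps27l*, −0.23 to 0.0002 for *Rps4x* and −0.13 to 0.0279 for *Rpsa*. Paralog ratio differences that turned ranged from −0.0343 to 0.23 for *Rpl7l1* to *Rpl7*, −0.62 to 0.37 for *Rpl36al* to *Rpl36a* and −0.14 to 0.51 for *Rps27l* to *Rps27*. The cause was not tested. With 3 clones a group, the difference between clones enters each comparison, and its weight against the counting error was not tested. Among the members tested, *Rps27rt* had the fewest reads, with 11 to 20 in a clone. *Rpl3l*, *Rpl10l* and *Rpl39l*, near 3 reads or below, were not compared.

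Control and *Snd1* KO clones share the numbers 1 to 3, but clones of the same number did not deviate together (r = 0.05, −0.12 and −0.07 across 17823 genes), so they share only a number. The replicate block left 1 member at an unadjusted p under 0.05 and gave *Rpl3* an adjusted p of 0.736 (limma).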
